A study of Rattus norvegicus with 6 samples.

Results

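Genes of the islets of Langerhans, the hormone-secreting part of the pancreas, were followed in whole pancreas of rats on an ethanol diet and rats on a control diet. The set was chosen by gene symbol and holds 10 listed genes, namely the hormones Ins1, Ins2, Gcg, Sst, Ppy and Iapp, the granule protein Chga, the hormone-cutting proteases Pcsk1 and Pcsk2, and the glucose transporter Slc2a2. For 9 of the 10 the platform annotation gave a probe set of that symbol alone, 1 probe set each, out of 10411 genes and 15866 probe sets on the array. Pcsk1 had none and was not analysed here. The study asked how chronic ethanol consumption affects the rat pancreas. There were 3 ethanol-fed and 3 control-fed rats, each with 1 single-colour array of total pancreas RNA. The labels give neither strain, age, sex nor dose and duration of ethanol, and both groups are whole tissue in which islets are a minor part.

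Islets hold several endocrine cell types. Beta cells make insulin, which rats encode in a pair of genes, Ins1 and Ins2, and co-secrete islet amyloid polypeptide (Iapp). Alpha cells make glucagon (Gcg), delta cells somatostatin (Sst) and PP cells pancreatic polypeptide (Ppy). All these hormones are made as longer precursors, which the prohormone convertases Pcsk1 and Pcsk2 cut inside dense-core granules, where chromogranin A (Chga) is a major soluble protein. Slc2a2 (GLUT2) carries glucose into rodent beta cells. Insulin gene transcription in rodents is driven by a short promoter with E-box and A-box elements, bound by factors such as Neurod1 and Pdx1.

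Ins1 and Ins2 were read by separate probe sets yet varied together. Gcg and Sst, hormones of other islet cells, read highest in ethanol replicate 3, as did Ppy, whose start region is not shown. Whether sequence bears on these values was not tested. The start regions of 4 hormone genes, Ins1, Ins2, Gcg and Sst, are shown as background. Each runs from 250 bases before to 50 bases after the gene's start in RefSeq on the GRCr8 rat assembly, 5′ to 3′ on the gene's own strand. Capitals mark matches on either strand to GCCATCTG, an insulin E-box sequence, to TAATGGG and TAATTA, with the TAAT core of A-boxes, or to TGACGTCA, the cyclic AMP response element.
Ins1, chr1:261185869-261186168, plus strand: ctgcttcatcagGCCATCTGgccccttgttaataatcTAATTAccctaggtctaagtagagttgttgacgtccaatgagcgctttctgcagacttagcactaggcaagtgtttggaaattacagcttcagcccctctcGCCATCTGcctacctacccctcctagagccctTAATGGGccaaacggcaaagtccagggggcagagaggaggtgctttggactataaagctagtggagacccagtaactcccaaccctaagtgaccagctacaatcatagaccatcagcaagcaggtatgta
Ins2, chr1:207273756-207274055, minus strand: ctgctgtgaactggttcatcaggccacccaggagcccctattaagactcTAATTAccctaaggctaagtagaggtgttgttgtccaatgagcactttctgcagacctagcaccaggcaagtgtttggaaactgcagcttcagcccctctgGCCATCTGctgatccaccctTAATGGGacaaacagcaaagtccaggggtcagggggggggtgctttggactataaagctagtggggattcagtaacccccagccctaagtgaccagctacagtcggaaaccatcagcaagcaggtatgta
Gcg, chr3:67531484-67531783, minus strand: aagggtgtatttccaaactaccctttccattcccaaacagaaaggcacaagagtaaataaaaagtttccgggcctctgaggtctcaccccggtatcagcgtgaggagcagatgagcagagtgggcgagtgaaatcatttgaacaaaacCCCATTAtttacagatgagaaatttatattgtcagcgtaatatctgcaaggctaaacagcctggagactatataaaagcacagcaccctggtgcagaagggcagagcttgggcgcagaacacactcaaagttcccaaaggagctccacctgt
Sst, chr11:90461296-90461595, plus strand: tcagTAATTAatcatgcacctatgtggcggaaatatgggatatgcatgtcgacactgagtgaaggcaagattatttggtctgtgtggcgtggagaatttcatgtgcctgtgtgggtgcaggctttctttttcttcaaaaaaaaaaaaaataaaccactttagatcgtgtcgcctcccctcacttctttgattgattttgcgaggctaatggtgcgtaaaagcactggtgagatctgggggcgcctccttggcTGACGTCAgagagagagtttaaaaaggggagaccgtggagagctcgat

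GCCATCTG was found at 2 places in Ins1 and at 1 in Ins2, and in none of the other 6 islet genes with a promoter in the table, against 1.23% of the 33469 rat promoters of the same length. TAATGGG was found in Ins1, Ins2 and Gcg (2.56% of all promoters), TAATTA in Ins1, Ins2 and Sst (5.36%), and TGACGTCA in Sst (1.83%). The TGACGTCA match began 2 bases after the annotated start of Sst, whereas every other match lay before its gene's start. No matches overlapped in these genes. Aligned end to end, the Ins1 and Ins2 windows were identical at 254 of 312 positions, gaps included (81.4%). These are matches of letters only, and no binding was measured. GCCATCTG was searched for as a known insulin element, and the insulin windows are alike, so the shares are no test of enrichment.

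No islet gene differed between the diets beyond the spread among rats. Expression was compared on the log2(intensity + 50) scale with limma, a linear model moderated across all probe sets, and a gene was taken as changed where the adjusted p was under 0.05. Of the 9 islet probe sets, 7 were bright enough to be tested, that is at or above the 40th percentile of mean log2 intensity, and 0 of the 7 passed. At an unadjusted limma p under 0.05 the count was also 0 of 7. Over all 9520 probe sets tested, 0.41% passed the adjusted threshold, 0.105% higher and 0.305% lower in ethanol, and 18.4% had an unadjusted p under 0.05. The diet groups overlapped for each of the 7 genes, whereas on 25.4% of all tested probe sets they did not. What stood out in the values was the spread within the ethanol group, where ethanol replicate 1 read lowest for most genes of this set. The related lists of islet genes given below were not all low on that array. In whole tissue, fewer islet cells and less RNA per islet cell cannot be told apart.

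**Figure D1:**
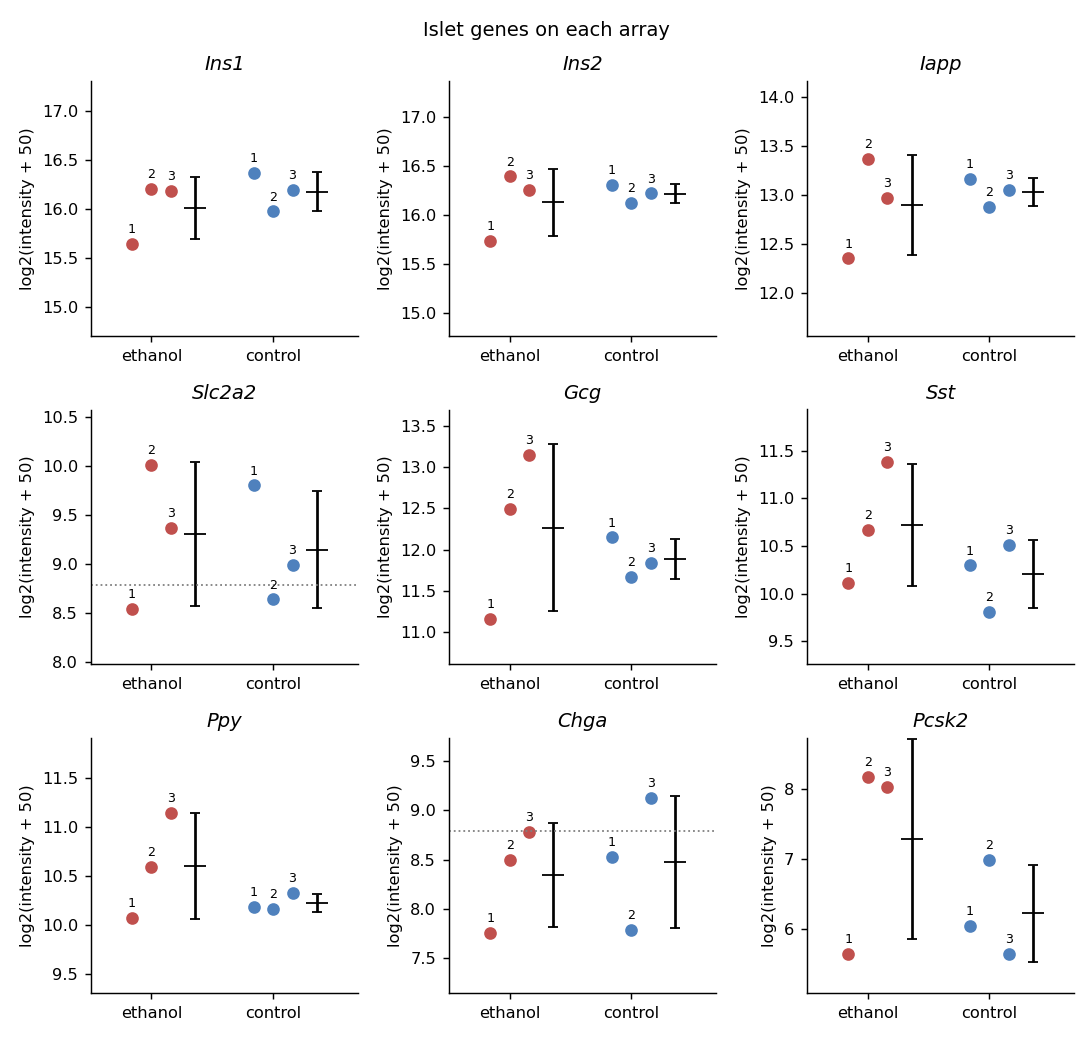
Log2(intensity + 50) of the 9 islet genes on each array, with ethanol (red) left of control (blue), point labels naming the rat and black bars giving mean ± SD (n = 3 each). The groups overlap in every panel, ethanol replicate 1 is the lowest array for 8 of the 9 genes (level with control replicate 3 for Pcsk2, since values below 0 are set to 0), and the dotted line marks the intensity limit for testing where it falls in the panel.

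Among the beta cell hormones, Ins1 had intensities of 51353, 75641 and 74629 in ethanol replicates 1, 2 and 3, against 84519, 64521 and 75039 in control replicates 1, 2 and 3. Only ethanol replicate 1 lay below the control range. The means were 67208 ± 13740 in ethanol rats and 74693 ± 10004 in control rats (SD, n = 3 each), a log2 change of -0.17 (SE 0.20, 95% interval -0.61 to 0.28, limma adjusted p = 0.683).

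Ins2 read 54741, 86182 and 78189 in the ethanol rats, against 81357, 71331 and 76458 in the control rats. Here ethanol replicate 2 was the highest array and ethanol replicate 1 the lowest, so the control rats lay inside the ethanol range. The log2 change was -0.09 (SE 0.19, 95% interval -0.53 to 0.35, limma adjusted p = 0.837). The insulin probe sets read between 29.9% and 51.9% of the brightest value on their arrays, where the response of an array may be compressed, and near-identical transcripts may share signal, so their separate values are uncertain to that extent.

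Iapp, the amyloid peptide stored with insulin, read 5182, 10555 and 7976 in ethanol rats, against 9141, 7499 and 8423 in control rats. The arrays fell in nearly the same order as for Ins2, with ethanol replicate 2 highest and ethanol replicate 1 lowest. Its log2 change was -0.13 (SE 0.25, 95% interval -0.70 to 0.43, limma adjusted p = 0.803).

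Slc2a2, the glucose transporter, was dimmer and more variable. It read 323, 986 and 612 in ethanol rats, against 845, 350 and 461 in control rats, and both groups held high and low arrays. The log2 change was 0.16 (SE 0.40, 95% interval -0.75 to 1.08, limma adjusted p = 0.862). Without ethanol replicate 1 the estimates for Ins1, Ins2 and Iapp were 0.02, 0.11 and 0.14, and none passed. The sign of Slc2a2 turned without ethanol replicate 2 (-0.19) or control replicate 2 (-0.09).

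The hormones of the other islet cells were higher in ethanol replicates 2 and 3 than in any control rat. Gcg, the glucagon precursor gene, read 2241, 5729 and 9025 in ethanol rats, against 4493, 3210 and 3628 in control rats. Ethanol replicate 1 was nevertheless below all 3 control rats, so that the ethanol group spanned a 3.96-fold range on the log2(intensity + 50) scale and the control group a 1.39-fold range. The means were 5665 ± 3392 and 3777 ± 654 (SD, n = 3 each) in ethanol and control rats, a log2 change of 0.38 (SE 0.44, 95% interval -0.62 to 1.38, limma adjusted p = 0.671). The estimate depended on single rats, at 0.93 without ethanol replicate 1 and -0.06 without ethanol replicate 3.

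Sst, which encodes somatostatin, an inhibitor of both insulin and glucagon release, had the largest estimate of the 7. It read 1057, 1578 and 2621 in ethanol rats, against 1209, 847 and 1407 in control rats. Ethanol replicates 2 and 3 exceeded every control rat, and ethanol replicate 1 lay among them. Its log2 change was 0.52 (SE 0.32, 95% interval -0.21 to 1.25, limma adjusted p = 0.424), with values from 0.19 to 0.82 when each array was left out in turn.

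Ppy, the hormone of PP cells, read 1027, 1496 and 2217 in ethanol rats, against 1114, 1098 and 1238 in control rats. The control rats lay within a 1.12-fold range and the ethanol rats within a 2.10-fold range. The log2 change was 0.38 (SE 0.25, 95% interval -0.20 to 0.96, limma adjusted p = 0.458), and from 0.11 to 0.64 with an array left out. The upper ends of the intervals for Gcg, Sst and Ppy correspond to 2.60-, 2.37- and 1.94-fold higher levels in ethanol, and with 3 arrays a diet differences up to that size remain within the intervals.

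**Figure D2:**
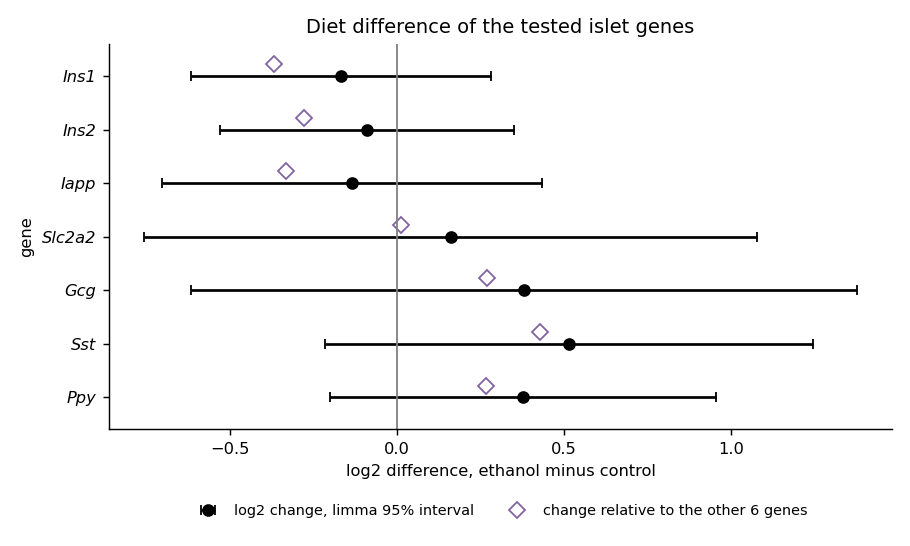
Log2 difference between ethanol and control for the 7 tested islet genes (black points, limma estimate with 95% interval), and the same after subtracting on each array the mean deviation of the other 6 genes (open diamonds, no test). Every interval includes 0, with estimates below 0 for Ins1, Ins2 and Iapp and above 0 for Slc2a2, Gcg, Sst and Ppy.

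The remaining probe sets belong to the secretory granule and were too dim to be tested. Chga read 166, 312 and 390 in ethanol rats, against 319, 170 and 508 in control rats, and its mean lay at the 31.9 percentile of all probe sets. The highest array was control replicate 3 and the lowest were ethanol replicate 1 and control replicate 2. For Pcsk2, the convertase that dominates in alpha cells, intensities were -193, 238 and 211 in ethanol rats, against 16, 77 and -2 in control rats. These lie near background, at the 9.48 percentile, and a value below 0 is a background-subtracted reading with no level. With no intensity filter the log2 changes were -0.13 (SE 0.44) for Chga and 1.05 (SE 0.79) for Pcsk2, with limma adjusted p of 0.927 and 0.597.

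The islet genes varied together from array to array, with the widest differences inside the ethanol group. Ethanol replicate 1 was the lowest of the 6 arrays for 8 of the 9 genes and for 6 of the 7 tested ones, the exception being Sst, which was lowest in control replicate 2. Over all tested probe sets, ethanol replicate 1 was lowest on 22.0% and highest on 21.3%, more often than any other array in both directions. The summed intensity of acinar markers was also highest on that array (1032556, against 970434 to 993451 on the other 5). That sum includes the array's brightest probe set (Pnlip, 171742), at a level where the response may be compressed. Macrophage and lymphocyte markers were lowest on the same array (6144, against 7022 to 8969 on the other 5). Stellate markers were low on it too, at 12206, as in control replicate 2 at 12173, against 15567 to 21086 on the other 4. The part of these markers in the islet values was not tested. Related islet lists, described below, were not all low on that array. Their tested genes had a mean log2 deviation there of 0.13 for islet transcription factors and 0.09 for other islet peptides. It was 0.10 for glucose sensing, channels and receptors and -0.16 for the granule list. Low readings in ethanol replicate 1 thus did not extend to every islet list. The mean log2 deviation of the 7 tested genes from their own means was -0.54, 0.33 and 0.43 in ethanol replicates 1, 2 and 3, against 0.12, -0.31 and -0.04 in control replicates 1, 2 and 3. The range from high to low was wider among ethanol rats than among control rats for 7 of 7 tested islet genes and for 59.5% of all tested probe sets. These 7 varied together, so they are not 7 separate observations. Of the dim genes, Chga went the other way (2.04-fold in ethanol, 2.54-fold in control) and Pcsk2 the same way (5.76-fold and 2.54-fold). The median within-group SD of the 7 was 0.54 in ethanol and 0.20 in control rats on the log2 scale, against 0.21 and 0.18 over all tested probe sets. Whether the diets differ in this spread was not tested.

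**Figure D3:**
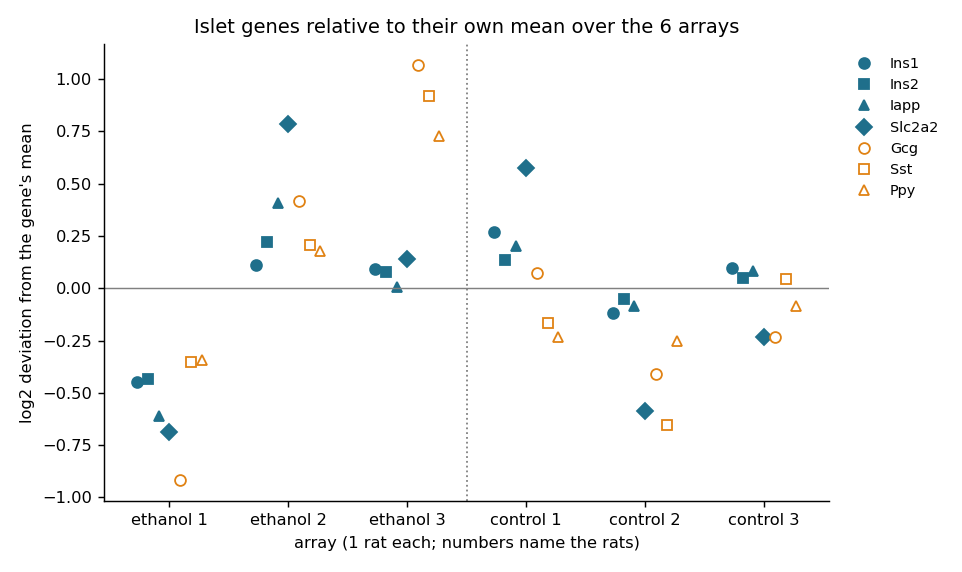
Log2 deviation of each tested islet gene from its own mean over the 6 arrays, with beta cell genes as filled blue symbols and the hormones of other islet cells as open orange symbols. All 7 genes lie below 0 in ethanol replicate 1, and in ethanol replicate 3 the open symbols stand between 0.73 and 1.07 while the filled ones stand between 0.00 and 0.14.

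The 21 pairs among the 7 tested genes all had positive correlations across the 6 arrays, which share their tissue mixture and normalization. Within the beta cell genes Ins1, Ins2, Iapp and Slc2a2, Pearson's r ran from 0.80 to 0.98 over 6 pairs. Among Gcg, Sst and Ppy it ran from 0.87 to 0.94 over 3 pairs, and between these sets from 0.35 to 0.75 over 12 pairs. The division into beta cell genes and others follows the known cell types but was made after the values were seen. After adjustment over the 21 pairs, 6 passed by Pearson's r with an exact permutation test, 4 within the beta cell genes and 2 among the others. By Spearman's rho 0 passed. The share of positive or passing pairs among all tested probe sets was not computed. These counts therefore do not show that such correlation is particular to islet genes.

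By Pearson's r, Ins2 and Iapp were the closest pair (r = 0.98, rho = 0.94, exact permutation p = 0.00278 and 0.0167, adjusted 0.0292 and 0.0583), and r was 0.88 without the 2 arrays farthest from the median of Ins2. By Spearman's rho the closest were Ins2 and Slc2a2 (rho = 1.0, exact permutation p = 0.00278, adjusted 0.0583), with r = 0.83. For Ins1 and Ins2, r was 0.94 and rho 0.89 (exact permutation p = 0.0111 and 0.0333, adjusted 0.0389 and 0.0778). The r fell to 0.22 without ethanol replicate 1 and control replicate 2, so the strength of that relation depended on those rats. They lay farthest from the median of Ins1, and leaving them out also narrows its range. With all arrays kept, as deviations from each diet's mean, r was 0.95. Sst and Ppy gave r = 0.94 and rho = 0.94 (exact permutation p = 0.00417 and 0.0167, adjusted 0.0292 and 0.0583), and r = 0.97 without the 2 farthest arrays. Taken as deviations from each diet's mean, r ran from 0.41 to 0.98 over the 21 pairs. It ran from 0.89 to 0.98 within the beta cell genes and from 0.88 to 0.94 among the others. Between the sets it ran from 0.41 to 0.89, so the ranges within and between sets overlapped slightly. This measure pools both diets, the ethanol rats spread more widely, and Ppy hardly varied among control rats.

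Insulin and the other hormones were then set against each other within each rat, which removes only what shifts both genes equally on the log2 scale. Shifts on one array were unequal, with deviations in ethanol replicate 1 of -0.45 for Ins1, -0.43 for Ins2 and -0.92 for Gcg. The log2 change of Sst exceeded that of Ins1 by 0.68, where the within-rat difference had an SD of 0.42 among ethanol and 0.25 among control rats. Ppy exceeded Ins1 by 0.54 (SD 0.32 and 0.20) and Ins2 by 0.47 (SD 0.37 and 0.12). For these 3 of 15 hormone pairs the diet groups did not overlap, which gave an exact permutation p of 0.1, the smallest that 3 arrays against 3 allow, and an adjusted p of 0.5. With each array left out in turn, they ran from 0.44 to 0.83, from 0.36 to 0.64 and from 0.26 to 0.60. Differences from Ins1 failed to overlap on 14.5% of all tested probe sets, and differences from Ins2 on 13.3%. Gcg exceeded Ins1 by 0.55 and Ins2 by 0.47, and the groups overlapped (two-sided exact permutation p = 0.4 for each, adjusted 0.6). With an array left out these ran from 0.19 to 0.92 and from 0.09 to 0.83, lowest without ethanol replicate 3 and highest without ethanol replicate 1. Ins1 and Ins2 themselves differed in their change by -0.08 (exact permutation p = 0.4).

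Relative to the mean of the other 6 genes on the same array, the change was 0.43 for Sst, 0.27 for Gcg and 0.27 for Ppy. By the same measure it was 0.01 for Slc2a2, -0.28 for Ins2, -0.33 for Iapp and -0.37 for Ins1. The contrast was uneven between rats. In ethanol replicate 3 the mean deviation of Gcg, Sst and Ppy exceeded that of the beta cell genes by 0.83, against 0.01 and -0.11 in ethanol replicates 1 and 2 and -0.40, -0.23 and -0.09 in control replicates 1, 2 and 3.

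Among other genes of dense-core granules, Cpe, Scg2, Pcsk1n and Scg5 were lowest in ethanol replicate 1, as most islet genes were. The other tested genes of their list were lowest elsewhere. Stx1a and Vgf were highest in ethanol replicate 1, which was the lowest array on 22% of all tested probe sets. The list of granins, processing enzymes and exocytosis factors had 13 tested genes of 19, of which 1 passed lower and 0 higher, with a median log2 change of 0.30 against -0.01 over all 7106 tested genes. Of all tested probe sets, 0.305% passed lower and 0.105% higher. The gene that passed was Cadps, a priming factor for dense-core vesicle exocytosis. It read 328, 285 and 342 in ethanol rats, against 692, 710 and 1003 in control rats, and the groups were well apart. The ethanol readings lay below the limit for testing, which equals an intensity of 392. Its mean thus reached that limit only through the control rats. The log2 change was -1.19 (SE 0.18, limma adjusted p = 0.0449, or 0.161 with no filter). That call was lost without any 1 of the 6 arrays, where limma gave 0 calls in this list, while the log2 change stayed between -1.28 and -1.03.

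Cpe, the carboxypeptidase that trims hormone precursors after cleavage, read 901, 3246 and 1643 in ethanol rats, against 2301, 1718 and 1591 in control rats. Scg2, a granin, read 558, 1399 and 1298 in ethanol rats, against 1359, 909 and 1115 in control rats. Both were lowest in ethanol replicate 1, as the insulins were. Pcsk1n, an inhibitor of Pcsk1, read 252, 864 and 585 in ethanol rats, against 554, 358 and 632 in control rats. Scg5, the chaperone of Pcsk2, read 846, 1540 and 1318 in ethanol rats, against 1317, 1051 and 936 in control rats. Ethanol replicate 1 was again the lowest and ethanol replicate 2 the highest array for both. These 4 and the endocrine granule protein Resp18 were named after their values were seen, and none changed between diets (limma adjusted p from 0.355 to 0.982). Over the 6 arrays, r to the mean deviation of the islet genes was 0.92 for Scg2, 0.89 for Resp18, 0.88 for Pcsk1n, 0.87 for Scg5 and 0.72 for Cpe. The other tested genes of this list with an SD of at least 0.3 ran from like to opposite, with r of 0.72 for Chgb, 0.29 for Ptprn, -0.22 for Cadps, -0.32 for Stx1a and -0.73 for Vgf.

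Genes of the granule list with the smallest p beside Cadps were the receptor-type phosphatases Ptprn and Ptprn2, which sit in the granule membrane. Ptprn read 1046, 1158 and 1389 in ethanol rats, against 650, 923 and 1072 in control rats, so that the groups overlapped (log2 change 0.44, SE 0.21, limma adjusted p = 0.301, and 0.25 to 0.59 with an array left out). Ptprn2 read 6393, 6104 and 7194 in ethanol rats, against 5609, 5755 and 4613 in control rats, with all 3 ethanol rats above the controls (log2 change 0.30, SE 0.15, limma adjusted p = 0.332). On 25.4% of all tested probe sets the diet groups did not overlap.

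**Figure D4:**
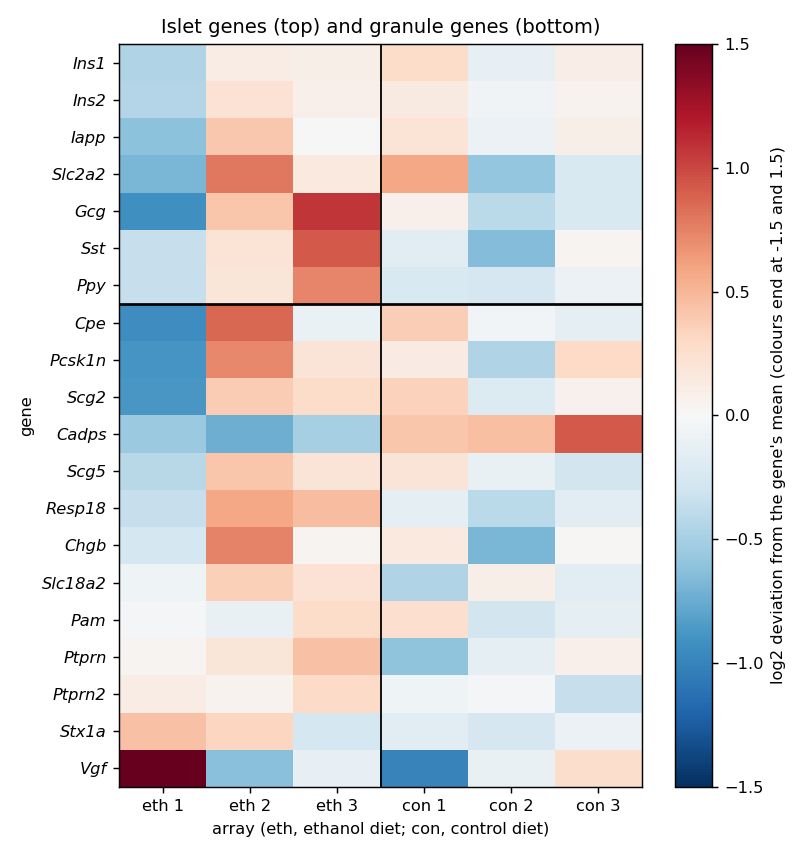
Log2 deviation from each gene's mean (colour) on the 3 ethanol and 3 control arrays, for the 7 tested islet genes above the line and the 13 tested granule genes below it, these sorted by ethanol replicate 1. Cpe, Pcsk1n, Scg2 and Scg5 are lowest in ethanol replicate 1, as most islet genes are, Cadps is low in all 3 ethanol rats, and Vgf is highest in ethanol replicate 1.

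Islet transcription factors gave 0 calls by limma among 6 tested genes of 18, with 1 gene higher and 0 lower where the p was left unadjusted (under 0.05). Over all tested probe sets 8.08% were higher and 10.3% lower at that unadjusted threshold. The 1 was Hnf4a, a nuclear receptor that acinar and other cells also use, at 1843, 1216 and 1329 in ethanol rats, against 764, 1162 and 877 in control rats (log2 change 0.62, SE 0.21, limma adjusted p = 0.183). A dimmer Hnf4a probe set went the other way, and the mean of both gave -0.00. Nkx6-1, a factor of beta cell identity, was at 0.32 (SE 0.20), and Foxa2, which is also found in exocrine cells, at -0.29 (SE 0.19). With an array left out they ran from 0.24 to 0.51 (Nkx6-1 was not tested without ethanol replicate 2 or 3) and from -0.40 to -0.13. The median of this list was 0.10. Pdx1 was below the intensity limit, as were Pax6 and Pax4.

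The list of glucose sensing, channels and receptors had 7 tested genes of 18 and 0 calls by limma, adjusted or at an unadjusted p under 0.05, with a median log2 change of -0.12. Its smallest p belonged to Ero1b, an oxidase of the endoplasmic reticulum that acinar cells also express (log2 change -0.31, SE 0.14, limma adjusted p = 0.298). The incretin receptor Gipr was at -0.29 (SE 0.19) and the somatostatin receptor Sstr3 at 0.24 (SE 0.21), which ran from -0.46 to -0.13 and from 0.04 to 0.40 with an array left out. Abcc8, a subunit of the beta cell potassium channel, was below the intensity limit. The list's summed intensity was 22094 to 25147 in ethanol and 25440 to 29983 in control rats, without overlap. Most of that sum came from Ero1b.

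Other peptides known from islets gave 0 calls by limma among 6 tested genes of 12, with 1 higher at an unadjusted p under 0.05 (8.08% over all tested probe sets) and a list median of 0.26. That gene was Gal, a neuropeptide also carried by nerves of the pancreas. It read 2368, 2436 and 1896 in ethanol rats, against 1263, 1518 and 1783 in control rats, and all 3 ethanol rats were above the controls (log2 change 0.54, SE 0.18, limma adjusted p = 0.170). Groups without overlap occurred on 25.4% of all tested probe sets. Npy was at 0.29 (SE 0.16) and Cck at 0.37 (SE 0.26), the second running from 0.17 to 0.63 with an array left out. The summed intensity of this list was 7338 to 8219 in ethanol and 5516 to 6278 in control rats, without overlap. Sums of the granule and transcription factor lists overlapped between diets. The sums were not tested.

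Genes outside the islet set that followed it most closely were sought among 2454 genes with an SD of at least 0.3 over the arrays. Genes of the related lists were among these candidates. By r to the mean deviation of the 7 islet genes over 6 arrays they were Prps2 (0.99), C5h9orf152 (0.97), Ppp1r15a (0.97), Myo6 (0.96), Ociad2 (0.95) and Cop1 (0.95). Prps2, a synthetase of phosphoribosyl pyrophosphate, read 766, 1391 and 1455 in ethanol rats, against 1237, 970 and 1162 in control rats. In all, 19 of the 2454 had r over 0.9, Scg2 of the granule list among them, and with 6 arrays such likeness is a description only.

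The label of the tissue was borne out by its markers, since 8 of 9 acinar marker genes were tested and none read 0 on any array. Their summed intensity was 984583 to 1032556 in ethanol and 970434 to 975806 in control rats, so the groups did not overlap. Most of this sum comes from probe sets near the brightest on the arrays, where the response may be compressed. Limma called 0 of these 8 genes, and 0 at an unadjusted p under 0.05. Erythroid markers (4 tested of 6) summed to 25855 to 33545 in ethanol and 15433 to 22997 in control rats, with 3 higher at an unadjusted p under 0.05 and 0 after adjustment by limma. Of all tested probe sets, 8.08% were higher at that unadjusted threshold. Duct, stellate, endothelial and leukocyte lists overlapped between diets in their sums. For neural and Schwann markers, which matter because nerves share granins with islets, sums were 3350 to 4278 in ethanol and 3158 to 3372 in control rats, with 4 tested of 11 and readings of 0 on up to 2 of 11 probe sets an array. Adipocyte markers, 2 tested of 6, summed to 6493 to 8256 in ethanol and 3939 to 6182 in control rats. On the 2 brightest markers of each list the log2 changes were 0.02 for Cpa1 and 0.10 for Pnlip (acinar), -0.27 for Muc1 and 0.45 for Car2 (duct), -0.05 for Col3a1 and -0.14 for Dcn (stellate), and 0.43 for Plvap and -0.18 for Kdr (endothelial). They were 0.02 for Lyz2 and -0.52 for Cd74 (leukocyte), 0.80 for Hbb and 0.64 for Hba-a3 (erythroid), 0.17 for Prph and -0.11 for Nefl (neural), and 0.77 for Lpl and -0.13 for Fabp4 (adipocyte). Limma's adjusted p of these 16 genes ran from 0.107 to 0.971. The part of the erythroid, neural and adipocyte differences in the islet values was likewise not tested.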

How the data were processed

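Whole pancreas of 3 ethanol-fed and 3 control-fed rats was measured, with 1 array a rat. Per the labels' protocols, 5 micrograms of column-purified total RNA were made into biotinylated cRNA. The authors deposited an intensity for every probe set and array. How the arrays were scanned and normalized is not given in the sources used here. From the values, background had been subtracted (931 to 949 readings an array below 0) and the arrays shared a median of 543 or 544, so a difference in total RNA is not visible.

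From these, 57 control probe sets were left out, readings below 0 were set to 0, 50 was added and log2 taken, which understates the change of dim probe sets. Genes were named from the platform annotation (12783 probe sets with 1 symbol, 312 with several, 2771 with none; 12748 of those with 1 symbol matched RefSeq by gene ID). Probe sets at or above the 40th percentile of the mean (9520) entered limma 3.58.1 (R 4.3.3), with 2 groups, no block and Benjamini-Hochberg adjustment over all of them. The number of arrays limits precision (median SE 0.18). Hormone differences and correlations used exact permutation tests (scipy 1.17.1). A list counts each gene on its tested probe set of highest mean. Named genes were the islet genes, the 3 of smallest p and any that passed in each related list, the 2 brightest of each marker list and the 6 most similar genes. The islet genes, lists and tests were chosen with earlier results of these data known. The procedure was tested on simulated data. Alternatives were other constants (20, 100), normalizations, filters, a variance trend, a replicate block, another threshold, averaged probe sets and each array left out. Same-numbered rats did not deviate together (r of -0.03, 0.03 and -0.14), so numbers were not taken as pairs.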

Additional observations from a re-analysis of the deposited data

How the results depend on the processing

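None of the 7 tested islet genes was called by limma under any of the 16 alternative fits (Slc2a2 went untested at the 60th percentile), and limma's lowest adjusted p over these was 0.132, for Gcg. The number of probe sets called among all tested was 39, and 12 with a constant of 20, 0 with no filter (2263 by limma with unadjusted p below 0.05), 134 with a filter at the 60th percentile, 249 with a variance trend, 228 at an adjusted p under 0.10, and 2 to 38 with each array left out. With the replicate block it was 6, and no islet gene was called. The count of 1 gene called in the related lists, Cadps, became 0 with a constant of 20 (limma adjusted p = 0.0501), with no filter (0.161), with the replicate block (0.1), and in each fit with an array left out (0 to 0 calls), over a range of 0.0254 to 0.161 in all alternatives that tested it. At the 60th percentile the count was 0 because Cadps was not tested. With each array left out in turn, the log2 change ran from -0.27 to 0.017 for Ins1, from -0.22 to 0.11 for Ins2, from -0.37 to 0.14 for Iapp, from -0.059 to 0.93 for Gcg and from -0.19 to 0.54 for Slc2a2, crossing 0 in each case without being called. Averaging probe sets turned Hnf4a to -0.0042. Small differences between hormones also turned. Gcg minus Ppy was -0.0033 with a constant of 20 and ran from -0.17 to 0.29 with an array left out, Gcg minus Sst from -0.31 to 0.11, Sst minus Ppy from -0.029 to 0.24, Iapp minus Ins1 from -0.11 to 0.12 and Iapp minus Ins2 from -0.15 to 0.033. Without the 2 arrays farthest from the median of Ins1, r of Ins1 was -0.34 with Gcg, -0.64 with Sst and -0.64 with Ppy. The cause of these shifts was not tested. The dim Chga and Pcsk2, and the less bright Slc2a2, may be limited by signal over background, and the bright insulins by compression. Neither limit was tested.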
